A study of Danio rerio with 28 samples.

Results

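Mediator and TFIID are the large protein assemblies that carry signals from gene-bound activators to RNA polymerase II and place the polymerase at promoters. The genes described here are the 47 zebrafish genes of the deposited count table whose symbol is med or taf followed by a digit, out of 32520 genes in all. Of these, 28 are med genes and 19 are taf genes. The med genes fall into the head (11 genes), middle (8), tail (6) and kinase module (3) of Mediator. The taf genes hold 14 subunits of TFIID, the SAGA forms taf5l and taf6l, the RNA polymerase I factors taf1a and taf1b, and taf15.

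RNA enriched for newly made transcripts was measured in whole zebrafish embryos during zygotic genome activation, when the embryo starts to transcribe its own genome. Embryos were injected with s4UTP, a sulfur-bearing uridine nucleotide that enters new RNA, and the labelled RNA was biotinylated, captured on beads and treated with iodoacetamide (IAA), as in SLAM-seq. The 8 groups were wild type embryos, and mir430-/- embryos injected with miR430 (called mutant below), at the stages 256c, 1024c, Oblong and Sphere, with 3 IAA libraries each. The series asks what becomes of zygotic transcription when the major transcription bodies are lost in the mutant. Wild type embryos received s4UTP but no miR430, so effects of the deletion, of the injection and of the line's own background cannot be told apart. Replicates are labelled as biological with no clutch named. The p-values rest on the spread of libraries within groups, estimated over all 8 groups together in the main model. That spread may be technical in part.

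As background, the head and middle of Mediator contact the polymerase, the tail is bound by many activators, and the kinase module of Med12, Med13, cyclin C and Cdk8 or Cdk19 attaches reversibly to the rest. TFIID holds the TATA-binding protein and its associated factors, the TAFs, many of which pair through histone folds, and it is the first general factor to settle on a promoter. In the early zebrafish embryo maternal stores of these proteins and mRNAs precede zygotic transcription, and the labelled fraction is enriched for RNA made after the injection. What part of the med and taf counts is maternal RNA carried along in the capture was not tested.

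The 24 libraries held 4960211 to 13803137 counts, of which 37.4 to 98.8% were mitochondrial, and nuclear genes received 160889 to 4118874 counts. Depth was lowest at 256c, with 160889 to 204534 nuclear counts in wild type and 258302 to 634140 in the mutant. A library held 243 to 3512 counts over all med genes and 141 to 2651 over all taf genes, so a single gene often rested on few counts. Wild type Sphere replicate 1 stood apart from the other libraries of its group, with 87.1% mitochondrial counts against 59.9% and 37.4%, and with 919807 nuclear counts against 4118874 and 3919030. The 54 mir430 genes had 42970 to 320125 summed counts per wild type group and 9 to 73 per mutant group. Of 5 markers of differentiated cells such as muscle and blood, none had a count in wild type 256c, and their summed CPM (counts scaled to a common library size, here by TMM) was at most 14.7 in any library.

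A total of 25 med genes and 17 taf genes had enough counts to be tested. The genes left untested were med18, med29, med30, taf4a and taf6, which held 113, 23, 43, 87 and 79 counts over all 24 libraries. Levels per kilobase of exon, which allow genes to be set against each other, were highest among the taf genes, in all 8 groups, for taf15, which encodes an RNA-binding protein. Its level was 2.73 ± 0.87 CPM per kb (SD, n = 3) in wild type 256c and 9.44 ± 5.54 at Sphere, and it stood at 3.34 ± 1.42 and 11.1 ± 3.5 in the mutant. The next taf gene by this measure at Oblong and Sphere was taf13, a TFIID subunit with a histone fold, at 6.58 ± 2.96 CPM per kb in wild type Sphere and 8.25 ± 2.21 in mutant Sphere.

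No med gene led in all groups. The head gene med28 was first in wild type 256c at 5.13 ± 3.67 CPM per kb and again in wild type Oblong at 3.19 ± 1.04, and its lead over the next gene was smaller than the spread between libraries. In the mutant the head gene med11 was first at 256c, at 5.25 ± 0.84 CPM per kb, and at 1024c, at 5.13 ± 2.30. At Sphere, med22, med6 and med7 made up the first 3 places in both genotypes, with mean levels of 4.07 to 4.22 CPM per kb in wild type and 3.73 to 4.72 in the mutant, and these did not differ beyond their SDs.

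**Figure D1:**
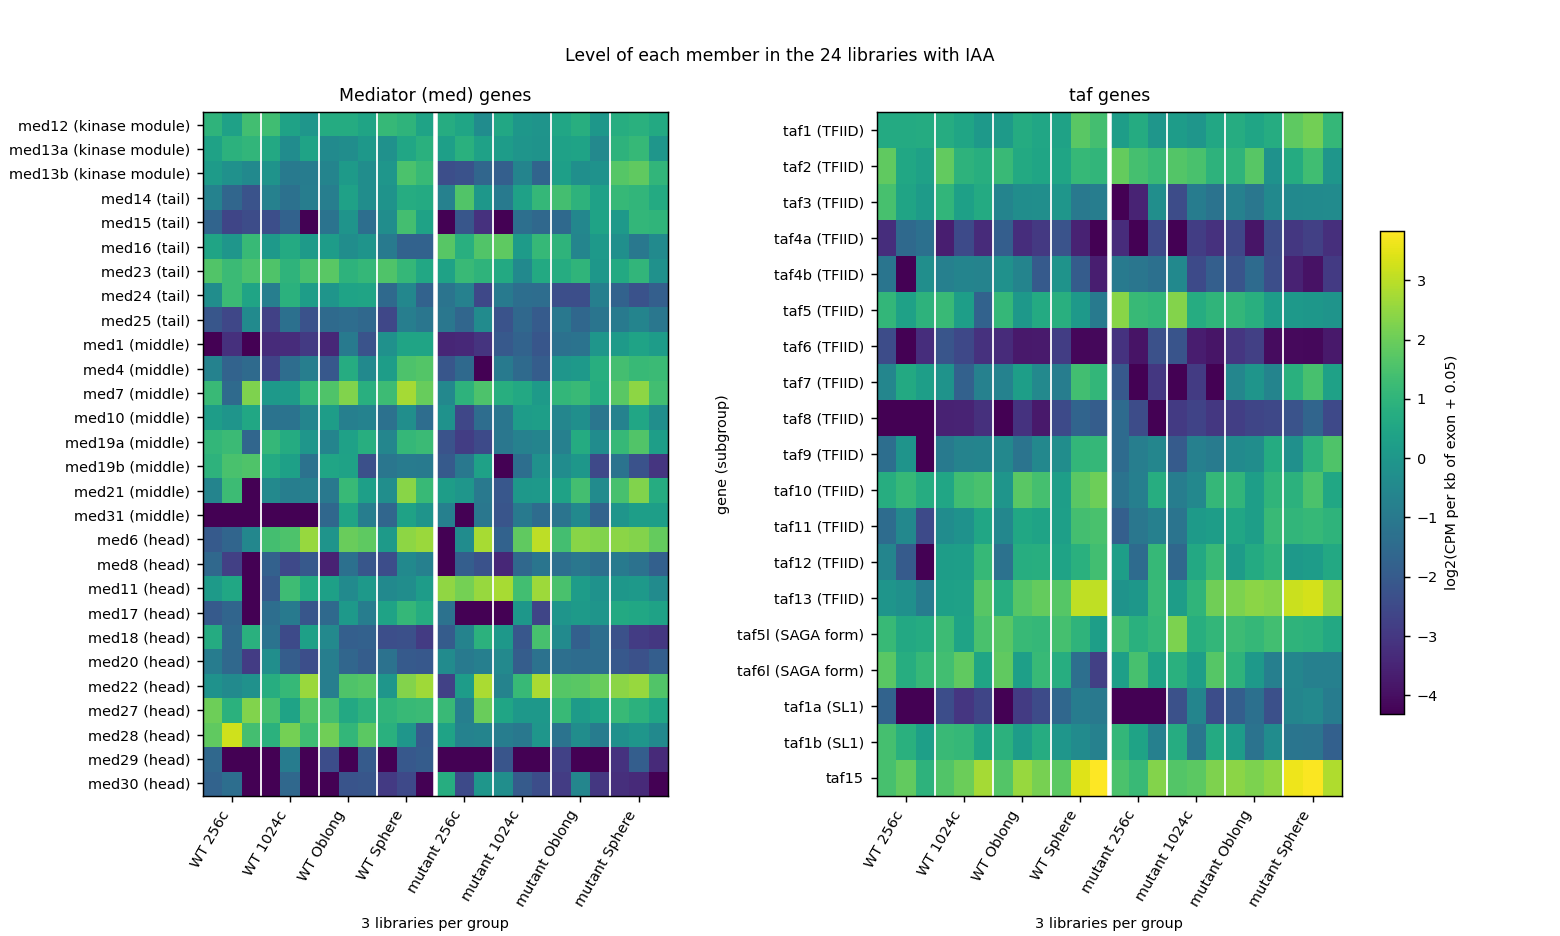
Level of each of the 28 med and 19 taf genes in the 24 IAA libraries, as log2 of CPM per kilobase of exon with 0.05 added, grouped by subgroup. Columns are libraries in groups of 3, rows are genes. taf15 is bright in every group, taf7 is dark in the mutant at 256c and 1024c, and med28 is bright in wild type from 256c to Oblong.

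Summed over its members, the Mediator middle had 10.4 ± 0.4 CPM in wild type 256c and 4.75 ± 1.22 in mutant 256c, and the ranges of the libraries did not overlap. The kinase module genes summed to 35.3 ± 5.1 CPM in wild type 256c and 22.4 ± 4.1 in mutant 256c, again without overlap. By Sphere the middle stood at 20.2 ± 8.4 and 20.9 ± 5.1 CPM and the kinase module at 40.1 ± 9.4 and 49.4 ± 13.1, and the genotypes overlapped. Head and tail sums overlapped between genotypes at 256c, with a wider spread in the mutant (22.03 ± 16.25 and 34.03 ± 12.65 CPM) than in wild type (16.2 ± 1.7 and 26.3 ± 2.2). The TFIID genes summed to 39.2 ± 8.2 and 38.4 ± 6.0 CPM at 256c and to 55.3 ± 15.4 and 58.5 ± 13.9 at Sphere in wild type and mutant. These sums are descriptions, to which no test was applied, and their course depends on the scaling. As a share of nuclear counts, all med genes went from 0.160 ± 0.014% at 256c to 0.088 ± 0.020% at Sphere in wild type. All taf genes went from 0.123 ± 0.041% to 0.071 ± 0.014%. In the mutant the med share went from 0.105 ± 0.021% to 0.087 ± 0.001% and the taf share from 0.084 ± 0.032% to 0.066 ± 0.003%.

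**Figure D2:**
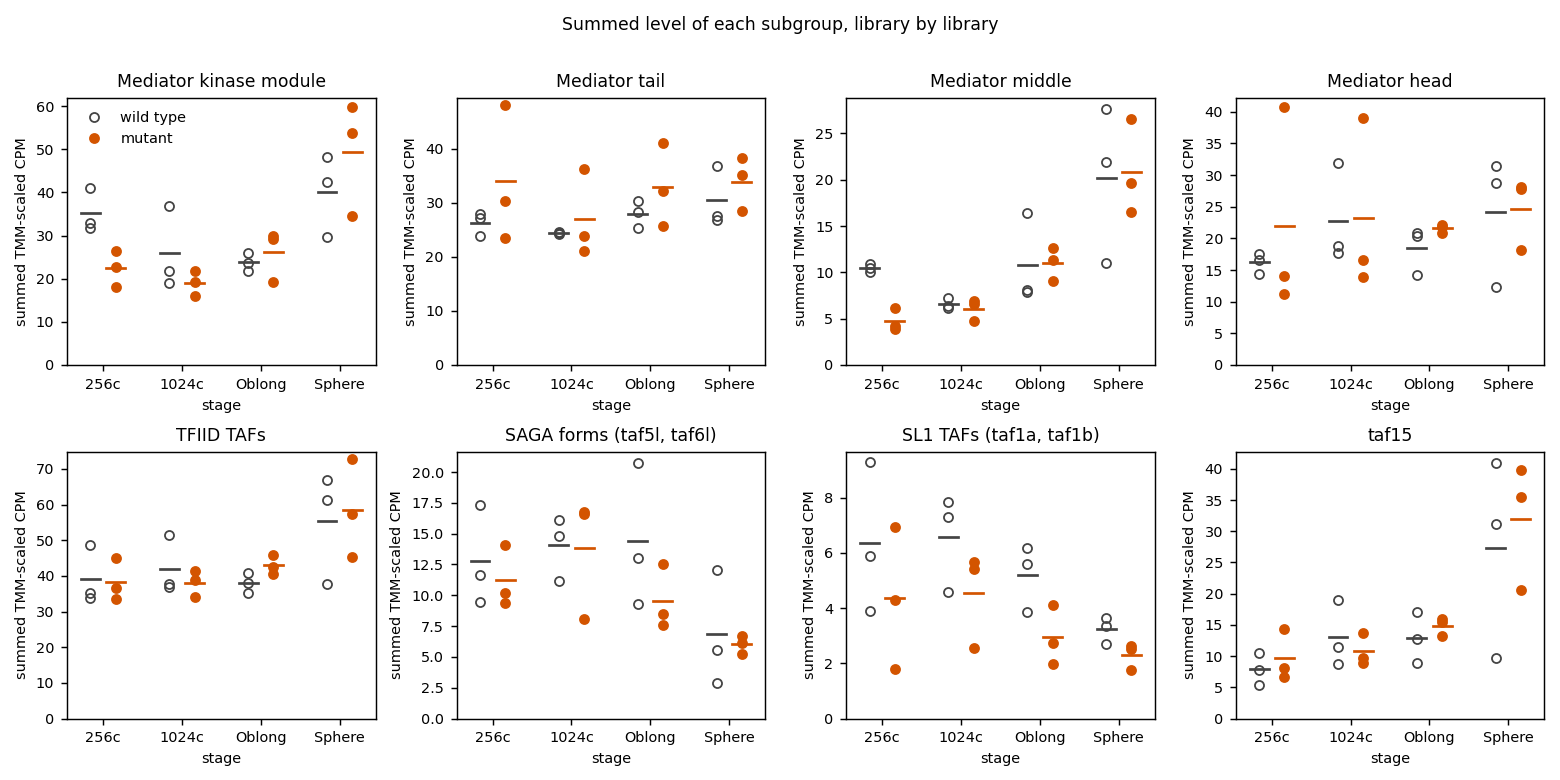
Summed TMM-scaled CPM of each subgroup in every IAA library, by stage, with wild type as open and mutant as filled points and the mean of 3 libraries as a bar. The middle and kinase module panels show separate genotypes at 256c, and the lowest wild type Sphere point of the middle, head, TFIID and taf15 panels lies far below the other two.

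At 256c the genotypes differed in a few subunits of both complexes. By edgeR's quasi-likelihood test over all genes, med11 and med14 were higher in the mutant, and med13b, med19a and med28 were lower, which is 5 of 25 med genes. taf3 and taf7 were lower and no taf gene was higher, which is 2 of 17. Over all 14732 genes tested, 9.47% were called in either direction at an adjusted p under 0.05, 6.6% higher and 2.87% lower, so the taf share was near the background and rested on 2 genes. The median log2 fold change, mutant over wild type, was -0.38 over the tested med genes (-0.45 with med31, which had no wild type counts, at its bound), 0.11 over the taf genes and 0.24 over all genes. In whole-embryo samples, fewer cells of a kind and less RNA per cell cannot be told apart.

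med28, on chromosome 1 from 21309386 to 21312596 of GRCz11 (ENSDARG00000037410), encodes a head subunit. Its counts at 256c were 13, 26 and 6 in the wild type libraries and 5, 4 and 3 in the deeper mutant libraries. Scaled to CPM these were 4.66 ± 3.34 and 0.735 ± 0.365 (SD, n = 3), every mutant library lay below every wild type library, and the gene fell by 2.70 ± 0.73 on the log2 scale (SE; edgeR, adjusted p = 0.0198).

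med19a, on chromosome 14 from 22102203 to 22108718 (ENSDARG00000037392), belongs to the middle, where its product sits near the polymerase. It had 12, 10 and 1 counts in wild type 256c and 1 count in each mutant library. The ratio of the summed counts, scaled by TMM, was 13.98-fold lower in the mutant (edgeR, adjusted p = 0.0117). The 95% binomial limits on it, which cover counting error and not that of the scaling, were 4.22 and 72.7. Its partner gene med19b had 9, 10 and 9 counts against 1, 4 and 8 and did not pass the test (log2 fold change -1.99 ± 0.92, adjusted p = 0.188).

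med13b, on chromosome 15 from 20060643 to 20125331 (ENSDARG00000003910), encodes a form of Med13, the subunit that links the kinase module to the rest of Mediator. It had 35, 20 and 14 counts in wild type 256c and 5, 10 and 12 in the mutant. The levels of 6.84 ± 1.59 and 1.53 ± 0.56 CPM did not overlap, and the log2 fold change was -2.16 ± 0.59 (edgeR, adjusted p = 0.0211). The other gene of the pair, med13a, had 46, 51 and 47 counts against 45, 125 and 60, at 15.4 ± 3.7 and 12.4 ± 3.0 CPM, and did not pass (adjusted p = 0.784).

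med11, on chromosome 10 from 22912251 to 22916096 (ENSDARG00000086416), encodes a small head subunit that pairs with Med22. Its counts of 3, 3 and 0 in wild type 256c stood against 17, 24 and 23 in the mutant. The levels were 0.571 ± 0.509 and 3.71 ± 0.59 CPM, with no overlap, and the log2 fold change was 2.60 ± 0.80 (edgeR, adjusted p = 0.0393).

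med14, on chromosome 9 from 34397516 to 34428152 (ENSDARG00000009953), encodes the backbone that joins head, middle and tail. It had 22, 8 and 4 counts in wild type 256c and 23, 231 and 51 in the mutant. In CPM the mutant libraries stood at 5.32, 29.2 and 9.23 and the wild type libraries at 5.38, 2.61 and 1.55, so the lowest mutant library overlapped the highest of wild type (log2 fold change 2.17 ± 0.69, adjusted p = 0.0436).

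taf7, on chromosome 14 from 40852497 to 40874102 (ENSDARG00000019572), encodes a TFIID subunit that binds Taf1. It had 6, 11 and 7 counts in wild type 256c and 2, 0 and 1 in the mutant, which is 14.6-fold lower (counting limits 4.43 and 75.7) (edgeR, adjusted p = 0.0133). taf3, on chromosome 4 from 25084228 to 25168458 (ENSDARG00000045513), encodes the TFIID subunit whose PHD finger binds methylated histone H3. It had 36, 13 and 9 counts against 0, 1 and 14, and mutant replicate 3, at 14 counts, was far above the other two of its group. The levels of 5.51 ± 2.88 and 0.887 ± 1.43 CPM still did not overlap (log2 fold change -2.64 ± 0.79, adjusted p = 0.0333).

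**Figure D3:**
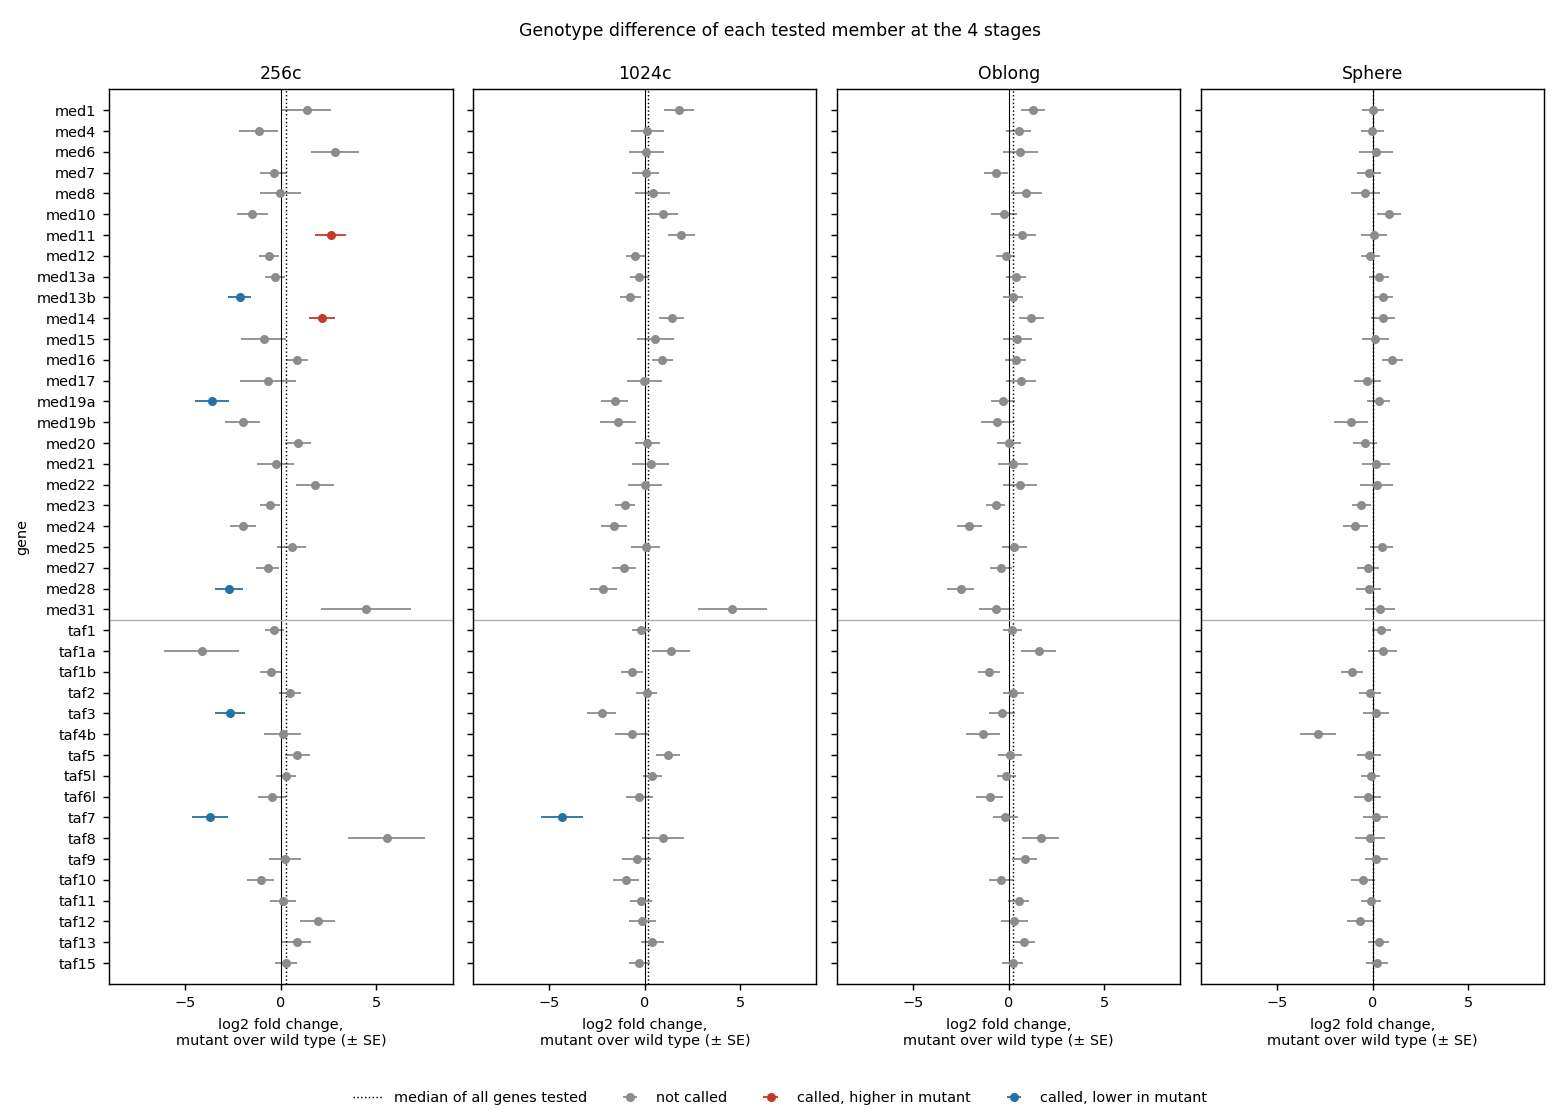
Log2 fold change of mutant over wild type, with its SE as the bar, for the 25 med and 17 taf genes tested at each stage. Called genes are coloured (red higher, blue lower in the mutant), the dotted line is the median of all 14732 genes tested, and calls are found at 256c (7 genes) and 1024c (taf7).

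The 7 calls at 256c rested on small numbers of counts, and fewer members were called when any 1 library of that stage was left out. No med or taf gene was called without wild type replicate 2, and none without mutant replicate 2. Leaving out wild type replicate 1 or mutant replicate 3 left 1 med call, and leaving out wild type replicate 3 or mutant replicate 1 left 3. For taf genes each of these 4 left 1 call. Over all genes, the 972 higher and 423 lower calls became 377 and 262 without wild type replicate 2, and 777 and 243 without mutant replicate 2. The higher calls rose only without mutant replicate 1, to 1151, with 301 lower. Scaling by total counts turned the med calls to 3 higher and 0 lower, and fitting replicate number as a block left 0 higher and 3 lower.

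Markers of other cell types had different summed levels in the genotypes at 256c, to which no test was applied. Of 7 enveloping layer markers, 3 had counts in wild type, with krt4, krt92, cldne and krt18a.1 at 0, against 6 in the mutant, with krt92 at 0, and their summed level was 6.20 to 24.04 against 33.3 to 540.3 CPM. Early zygotic markers summed to 148 to 631 CPM in wild type (5 of 7 genes, sox32 and ved at 0) and 246 to 3867 in the mutant (7 of 7). Yolk syncytial layer markers summed to 22.5 to 84.1 CPM (2 of 4 genes, apoba and slc26a1 at 0) and 119 to 802 (3 of 4, slc26a1 at 0), and the 6 maternal markers to 21.3 to 51.3 and 41.3 to 90.6. The 5 germ plasm markers, all with counts, summed to 9.30 to 16.3 CPM in wild type and 5.07 to 10.9 in the mutant. The enveloping layer and yolk syncytial lists did not overlap between genotypes, and the early zygotic, maternal and germ plasm lists did. The part of cell makeup, stage or depth in the med and taf differences was not tested.

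At 1024c taf7 was the one gene called, lower in the mutant, which is 1 of 17 taf genes against 3.39% of all genes, 1.56% being lower. It had 15, 4 and 6 counts in wild type and 0, 1 and 0 in the mutant, which is 24.95-fold lower (counting limits 4.08 and 1025) (edgeR, adjusted p = 0.0271). That call was lost without wild type replicate 1 or 3, without mutant replicate 1 or 3, and with the replicate block. No med gene passed in edgeR, where 7 of 25 had an unadjusted p under 0.05, and DESeq2 called 1, med28. Of all 14732 genes DESeq2 called 517 higher and 399 lower. The share of all genes at an unadjusted p under 0.05 was not computed for this or any other comparison. med28 had 12, 28 and 10 counts in wild type against 3, 2 and 6, without overlap in CPM (log2 fold change -2.17 ± 0.73, edgeR adjusted p = 0.0957, DESeq2 adjusted p = 0.0426). taf3 had 48, 28 and 23 counts against 3, 8 and 9, also without overlap (edgeR adjusted p = 0.0967), and was called by DESeq2 (adjusted p = 0.0244).

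At Oblong no member was called in edgeR, against 1.7% of all genes, with 3 med genes and 0 taf genes at an unadjusted p under 0.05. DESeq2 called med28 alone among the members (adjusted p = 0.0136), and of all 14732 genes it called 324 higher and 267 lower. med28 had 31, 23 and 35 counts in wild type and 4, 8 and 6 in the mutant, or 2.90 ± 0.94 against 0.491 ± 0.176 CPM (edgeR log2 fold change -2.53 ± 0.69, adjusted p = 0.0569). At Sphere no member was called by either tool, against 1.1% of all genes in edgeR (0.394% higher and 0.706% lower), with 0 med genes and 1 taf gene at an unadjusted p under 0.05. That taf gene was taf4b, at 33, 16 and 2 counts in wild type and 2, 1 and 6 in the mutant (log2 fold change -2.86 ± 0.95, adjusted p = 0.181), and it was called without wild type Sphere replicate 3 (adjusted p = 0.0445). Without wild type Sphere replicate 1, no member was called at Sphere.

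At Sphere the libraries of the genotypes overlapped in the genes that were called at 256c. Most tested members did so there: 24 med and 16 taf genes overlapped, and 1 med and 1 taf gene did not. The share over all genes was not computed. The genes called at 256c were picked by their 256c values, so their overlap at Sphere is no test of a change between stages. At Oblong taf7 had 11, 33 and 18 counts in wild type and 17, 25 and 19 in the mutant, and at Sphere 15, 147 and 109 against 74, 138 and 69, or 4.01 ± 2.49 and 4.50 ± 1.82 CPM. At Sphere med28 had 20, 21 and 4 counts in wild type and 13, 18 and 15 in the mutant, or 0.873 ± 0.705 and 0.733 ± 0.109 CPM. med13b stood at 15.9 ± 7.9 and 23.2 ± 6.3 CPM, med19a at 2.40 ± 1.33 and 2.99 ± 1.32, and med11 at 0.590 ± 0.156 and 0.625 ± 0.109. med14 and taf3 overlapped there as well.

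**Figure D4:**
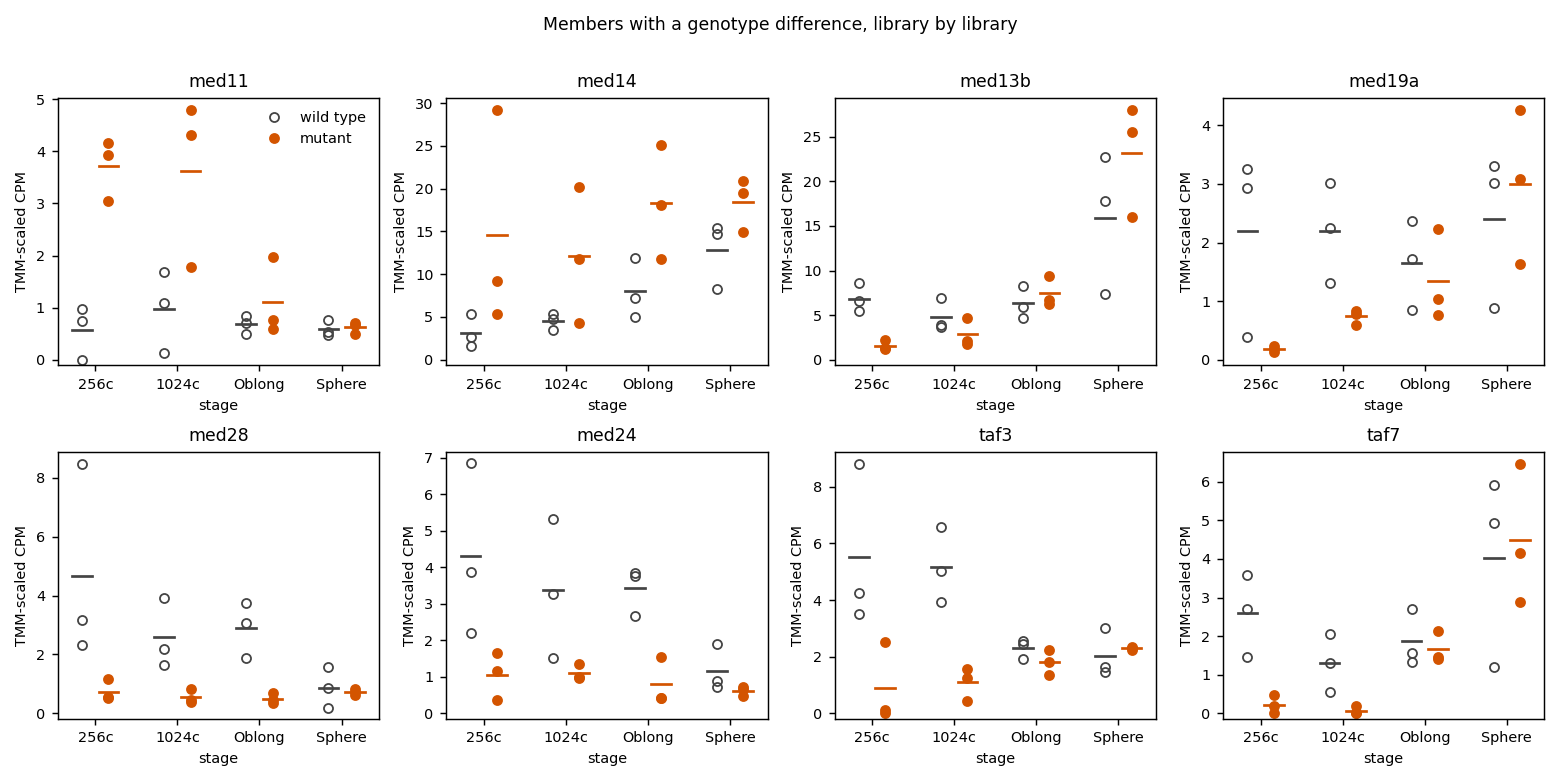
TMM-scaled CPM of 8 genes called for genotype, in every IAA library by stage, with wild type as open and mutant as filled points and the mean of 3 libraries as a bar. med24 and med28 lie lower in the mutant from 256c to Oblong, taf7 at 256c and 1024c, and med11 lies higher at 256c and 1024c, while at Sphere the ranges of the genotypes overlap in all 8 panels.

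The genotype difference averaged over the 4 stages uses all 24 libraries, among them those of the single-stage tests. Of 25 med genes, 4 were higher in the mutant (med11, med14, med16 and med31) and 5 lower (med19a, med19b, med23, med24 and med28). Of 17 taf genes, taf8 was higher and taf1b, taf3 and taf7 were lower. med19b had enough counts to be tested only with the wild type libraries, and taf8 only with the mutant Sphere libraries. The genotype calls of med19b and taf8 are thus no independent support. Of all genes tested 25.4% were called, 16% being higher and 9.44% lower. The med median was 0.03 and the taf median 0.08, against 0.21 over all genes. Without wild type Sphere replicate 1 the counts were 7 med and 3 taf genes. Without wild type 1024c replicate 1, mutant 256c replicate 1 or mutant Sphere replicate 3, 5 med genes were called, and without wild type 256c replicate 1, 2 taf genes.

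Among the 6 genes grouped here with the tail, med23 and med24 were lower in the average, and med14 and med16 were higher. med24, whose product lies in the tail beside Med16 and Med23, had 9, 21 and 10 counts in wild type against 5, 13 and 2 at 256c and 11, 38 and 15 against 9, 5 and 7 at 1024c. It had 22, 46 and 44 against 5, 5 and 21 at Oblong and 11, 47 and 16 against 13, 10 and 16 at Sphere. The averaged log2 fold change was -1.64 ± 0.33 (adjusted p = 0.000653). med14 had 39, 25 and 22 counts in wild type against 29, 60 and 145 at 1024c, 41, 145 and 83 against 294, 212 and 159 at Oblong, and 104, 383 and 326 against 372, 417 and 359 at Sphere. Its averaged value was 1.32 ± 0.33 (adjusted p = 0.00371).

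The other tail genes called were nearer the threshold. med16 stood at 4.69 ± 2.07, 3.74 ± 0.90, 2.85 ± 0.51 and 0.988 ± 0.384 CPM in wild type from 256c to Sphere and at 8.40 ± 2.58, 6.98 ± 3.71, 3.69 ± 2.10 and 1.998 ± 0.574 in the mutant. The libraries of the genotypes overlapped at each stage, and the averaged value was 0.79 ± 0.28 (adjusted p = 0.0368). med23, a subunit that several activators bind, was lower in mean at each stage, at 12.7 ± 1.8 against 8.44 ± 2.42 CPM at 256c and 10.2 ± 3.6 against 6.72 ± 2.75 at Sphere (averaged -0.73 ± 0.26, adjusted p = 0.0394). Each of these was called in 13 of 30 other settings.

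Of the head genes, med28 had an averaged value of -1.90 ± 0.35 (adjusted p = 0.000246), the lowest adjusted p among the 42 members tested. med11, with 1, 12 and 5 counts in wild type against 32, 9 and 31 at 1024c, 7, 6 and 8 against 23, 9 and 8 at Oblong, and 6, 13 and 17 against 12, 15 and 12 at Sphere, had 1.32 ± 0.36 (adjusted p = 0.00846). In the middle, med19a had 22, 16 and 6 counts in wild type against 4, 4 and 6 at 1024c, 7, 21 and 27 against 9, 26 and 14 at Oblong, and 11, 75 and 73 against 55, 91 and 39 at Sphere (averaged -1.30 ± 0.36, adjusted p = 0.00982). med19b had 13, 10 and 2 against 0, 2 and 7 at 1024c, 13, 18 and 2 against 10, 13 and 2 at Oblong, and 6, 14 and 12 against 8, 4 and 2 at Sphere (averaged -1.28 ± 0.45, adjusted p = 0.0371). Both genes of the med19 pair thus had lower averaged values in the mutant, and the difference between the pair was not tested. med19b had enough counts to be tested only with the wild type libraries, where it is higher. Its adjusted p-values for genotype are thus no independent support.

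med31, the small conserved middle subunit, had no count in the 6 wild type libraries at 256c and 1024c. In the mutant it had 2, 0 and 2 counts at 256c and 1, 2 and 2 at 1024c, followed by 2, 14 and 5 against 4, 7 and 3 at Oblong and 3, 27 and 17 against 14, 21 and 24 at Sphere. Against a floor of 3 counts over the wild type group it was at least 1.67-fold higher at 1024c. At 256c the mutant counts did not pass the floor once scaled by TMM. The averaged test passed (adjusted p = 0.0452) and was kept in 9 of 29 other settings.

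Among the TFIID genes taf7 had the largest fall in the average, at -2.02 ± 0.44 (adjusted p = 0.00129), and taf3 fell by 1.27 ± 0.37 (adjusted p = 0.0118). taf3 had 16, 30 and 29 counts in wild type against 21, 16 and 30 at Oblong and 38, 36 and 36 against 40, 49 and 56 at Sphere. taf8, whose product pairs with Taf10, had no count in wild type 256c against 5, 4 and 0 in the mutant, which is at least 1.64-fold higher against the floor of 3 counts over the wild type group. It had 1 count in each wild type library against 2 in each mutant library at 1024c, 0, 3 and 1 against 4, 5 and 6 at Oblong, and 6, 24 and 18 against 11, 21 and 11 at Sphere (averaged test, adjusted p = 0.0307). taf1b, a subunit of the RNA polymerase I factor SL1, stood at 6.18 ± 2.48, 6.36 ± 1.73, 5.06 ± 1.26 and 2.44 ± 0.63 CPM in wild type and at 4.35 ± 2.56, 3.97 ± 2.25, 2.47 ± 1.20 and 1.15 ± 0.31 in the mutant from 256c to Sphere (averaged -0.83 ± 0.29, adjusted p = 0.0362). Its libraries overlapped between genotypes at 256c and 1024c and did not at Sphere. At Oblong, with 51, 45 and 61 counts in wild type against 43, 15 and 33, they failed to overlap in CPM only by a narrow margin.

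The authors' deposited table of comparisons lists all 47 genes at each stage. In the authors' deposited table taf7, med28 and taf3 are marked as down-regulated at 256c, and none is marked at the other stages. The authors' deposited table gives log2 fold changes of -2.89 for taf7, -2.33 for med28 and -2.18 for taf3 at 256c. med11, med14, med13b and med19a have adjusted p-values of 0.0124, 0.00928, 0.00729 and 0.0113 in the authors' deposited table but carry no mark. Also without a mark in the authors' deposited table are taf7 (adjusted p = 0.0238), taf3 (0.0266) and med28 (0.0478) at 1024c and med28 (0.0162) at Oblong, all lower in the mutant. The rule for marking is not stated.

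From 256c to Sphere in wild type, 7 of 25 med genes rose (med1, med4, med6, med14, med15, med17 and med31) and 4 fell (med16, med19b, med24 and med28). Of 17 taf genes, 6 rose (taf8, taf9, taf11, taf12, taf13 and taf15) and taf6l fell. By module, 2 of 8 head genes rose and 1 fell, and 3 of 8 middle genes rose and 1 fell. Of the tail genes, 2 of 6 rose and 2 fell, and 0 of 3 kinase module genes were called in the main edgeR model. The middle rises include med31, which had enough counts only through the Sphere libraries, where it is high. The rise of med13b was called by DESeq2 (adjusted p = 0.00273) and in edgeR with DESeq2's size factors (0.0142) or without mitochondrial genes (0.0326). It was not called with the replicate block or only the groups compared. Over all genes 46.9% were called, 30.7% higher and 16.2% lower, with a median log2 change of 0.74, against 0.16 over the med genes and 0.65 over the taf genes. Without wild type Sphere replicate 1, 13 med and 8 taf genes were called. Leaving out wild type 256c replicate 2 left 5 med calls, and leaving out 256c replicate 3, Sphere replicate 2 or Sphere replicate 3 left 7. Leaving out 256c replicate 3 left 3 taf calls, and 256c replicate 1, Sphere replicate 2 or Sphere replicate 3 left 4.

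By fitted value taf8, med31, med1 and med6 came first among the called rises, but the values of taf8 and med31 are set against no count at 256c and only bounds can be given for them. Outside Sphere taf8 had at most 6 counts in a library and med31 at most 14. Both thus had enough counts to be tested only through the Sphere libraries, where they are high, and their adjusted p-values for a rise are no independent support. taf8 went from 0 counts in all 3 wild type libraries to 6, 24 and 18 at Sphere, which is at least 2.62-fold against the floor of 3 counts (adjusted p = 0.0143). med31 went from 0 counts to 3, 27 and 17, at least 2.56-fold (adjusted p = 0.0197). med1, the middle subunit that binds nuclear receptors, went from 0, 1 and 0 counts to 56, 177 and 157. Scaled by TMM this was 63.8-fold more (counting limits 11.4 and 2526, adjusted p = 0.000261). med6, of the head, went from 1, 1 and 2 counts to 16, 162 and 164, or from 0.449 ± 0.286 to 5.07 ± 3.32 CPM (log2 change 3.56 ± 1.22, adjusted p = 0.0218). The groups did not overlap for any of these 4 genes, which were picked as the largest rises in these same libraries. Among all tested members, 8 med and 5 taf genes lay higher at Sphere without overlap, and the share over all genes was not computed. For taf8 and med31, with no count at 256c, any count in each Sphere library is enough for that.

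med16, med19b, med24 and med28 had the 4 lowest fitted values among the called genes in wild type. med28 went from 4.66 ± 3.34 to 0.873 ± 0.705 CPM (log2 change -2.44 ± 0.68, adjusted p = 0.0067) and med19b from 2.98 ± 0.69 to 0.528 ± 0.045, with 6, 14 and 12 counts at Sphere (-2.46 ± 0.88, adjusted p = 0.0268). med16 had 17, 9 and 18 counts at 256c and 18, 19 and 17 in the deeper Sphere libraries (-2.24 ± 0.59, adjusted p = 0.00475). med24 went from 4.31 ± 2.36 to 1.16 ± 0.64 CPM (-1.86 ± 0.65, adjusted p = 0.0241). In 13 other settings the call of med19b was kept in 6 and that of med24 in 5. Each of these falls, and that of taf6l, is relative to the other genes: under total-count scaling their values were above 0 without passing the test, and there the median change of all genes was 3.49 in place of 0.74.

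Of the 12 TFIID genes tested, 5 rose in wild type and 0 fell, against 30.7% and 16.2% of all genes. The 5 include taf8, which had enough counts to be tested only through the Sphere libraries, where it is high. The count is thus no independent support for a rise of the set. taf11 went from 1.11 ± 0.79 to 6.56 ± 2.66 CPM (log2 change 2.54 ± 0.64, adjusted p = 0.00355) and its partner taf13 from 0.591 ± 0.181 to 5.29 ± 2.38 (3.11 ± 0.71, adjusted p = 0.00176). taf12, the partner of Taf4, went from 0.435 ± 0.498 to 2.999 ± 1.007 CPM (2.60 ± 0.88, adjusted p = 0.0206), and taf9, shared by TFIID and SAGA, from 0.598 ± 0.659 to 2.42 ± 1.13 (1.97 ± 0.77, adjusted p = 0.0381). taf9 overlapped between the stages, the others named here did not. taf6l, a SAGA form and the 1 taf gene that fell, had 6.20, 1.29 and 0.362 CPM at Sphere against 12.5, 6.20 and 8.14 at 256c, and Sphere replicate 1 overlapped the 256c libraries (-1.80 ± 0.74, adjusted p = 0.0477). The call of taf6l was kept in 2 of 13 other settings and was lost with DESeq2, without each of the 3 256c replicates and without Sphere replicate 2 or 3. The call of taf9 was kept in 7 of 13.

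In the mutant, 6 of 25 med genes rose from 256c to Sphere (med1, med4, med13b, med15, med17 and med19a) and 3 fell (med11, med16 and med20). Of 17 taf genes, 7 rose (taf1, taf1a, taf7, taf9, taf11, taf13 and taf15) and 3 fell (taf1b, taf4b and taf5). Like taf8 and med31, taf1a had enough counts to be tested only through the Sphere libraries, with at most 8 counts in a library outside Sphere. Over all genes 49.2% were called, 26.8% higher and 22.4% lower, with a median of 0.57, against 0.79 over the med genes and 1.22 over the taf genes. Under total-count scaling med16, med20, taf1b and taf5 had values above 0 and med11 and taf4b kept their sign, none of them passing the test. The call of med20 was kept in 2 of 13 other settings, being lost with DESeq2 and without any 1 of the 6 libraries, and that of taf5 in 5 of 13. Leaving out mutant 256c replicate 1 or Sphere replicate 2 left 5 taf calls.

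Called in both genotypes were the rises of med1, med4, med15, med17, taf9, taf11, taf13 and taf15 and the fall of med16. med1 went from 0.109 ± 0.188 to 6.23 ± 1.54 CPM in wild type and from 0.282 ± 0.070 to 6.20 ± 0.72 in the mutant. med15, a tail subunit that activators bind, went from 0.483 ± 0.220 to 4.38 ± 2.73 and from 0.229 ± 0.257 to 4.82 ± 1.66. No member was called in opposite directions. The share of all genes called in both genotypes, or in opposite directions, was not computed. Of all genes 46.9% were called in the wild type course and 49.2% in the mutant course.

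**Figure D5:**
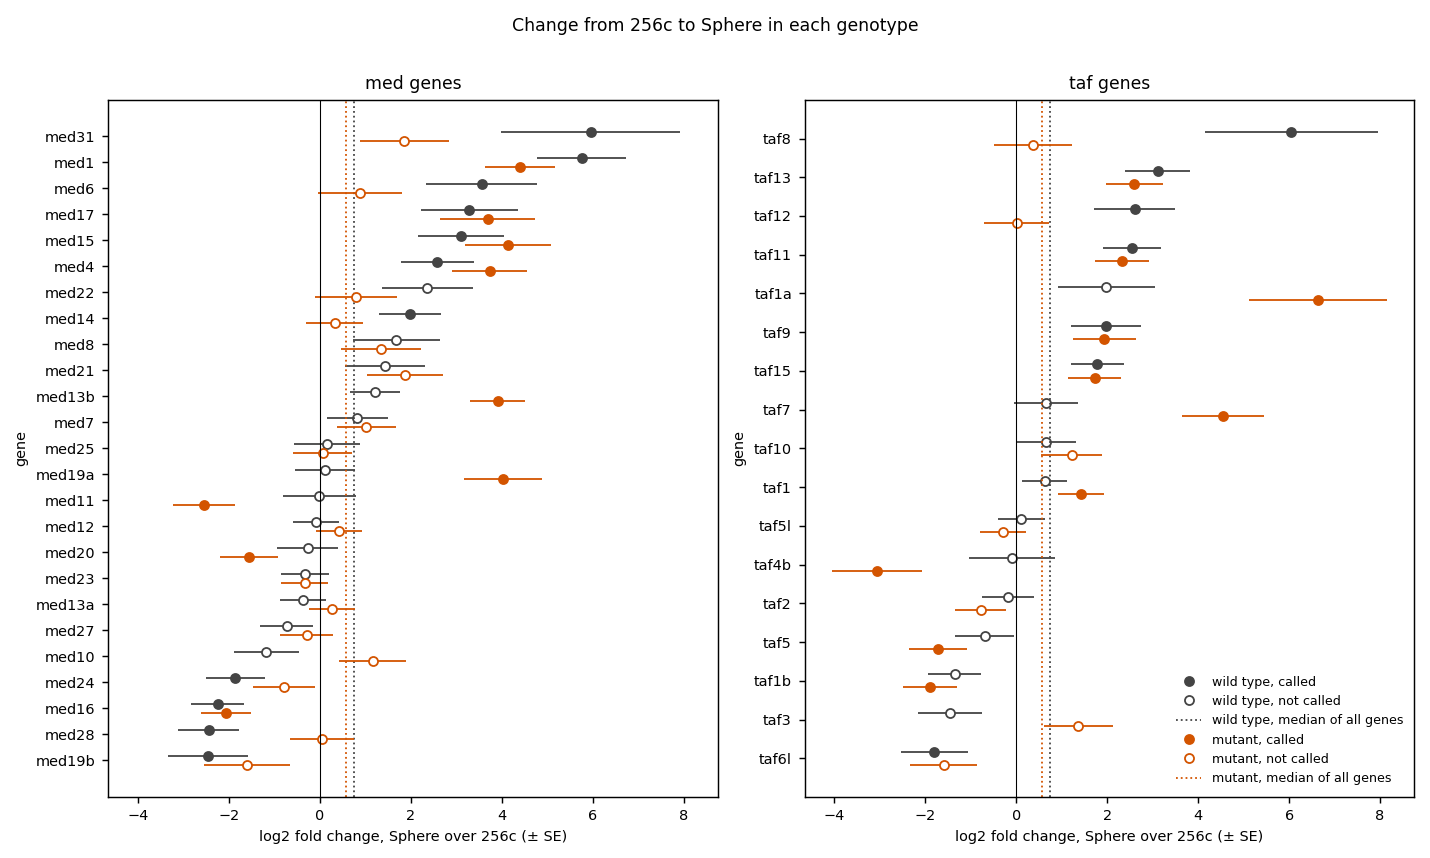
Log2 fold change from 256c to Sphere, with its SE, of each tested med (left) and taf (right) gene in wild type (grey) and mutant (orange), ordered by the wild type value. Filled points are called, dotted lines are the medians of all genes (0.74 and 0.57), and med1, med4, med15, med17, taf9, taf11, taf13 and taf15 are filled on the right of 0 in both genotypes.

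Some courses differed in size between the genotypes, but no member passed the test of that difference in edgeR, against 0.0136% of all genes. At an unadjusted p under 0.05 there were 5 med and 6 taf genes, and the share of all genes at that threshold was not computed. DESeq2 called med13b, med19a and taf7, and of all 14732 genes it called 118 higher and 346 lower. med19a had a log2 change of 0.11 in wild type and 4.03 in the mutant (difference 3.93 ± 1.09, edgeR adjusted p = 0.0942, DESeq2 adjusted p = 0.0435). taf7 had 0.66 and 4.55 (difference 3.89 ± 1.15, edgeR adjusted p = 0.107, DESeq2 adjusted p = 0.0434). med13b had 1.22 and 3.91 (difference 2.69 ± 0.79, edgeR adjusted p = 0.107, DESeq2 adjusted p = 0.0266). All 3 were among the genes lower in the mutant at 256c, and both comparisons use those 256c libraries.

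Where a pair of related genes could both be tested, their values are set side by side here, and the difference within a pair was not tested. med13a stayed at 7.25 ± 1.25 to 15.4 ± 3.7 CPM over the wild type stages and at 8.58 ± 1.13 to 14.9 ± 5.9 over the mutant stages, and it was called in none of the 8 comparisons. med13b rose in the mutant from 5, 10 and 12 counts to 456, 598 and 384 (log2 change 3.91 ± 0.61, adjusted p = 0.000367), and in wild type it went from 35, 20 and 14 to 92, 563 and 394 (1.22 ± 0.55, adjusted p = 0.066). DESeq2 called that wild type rise (adjusted p = 0.00273). med19a went from 2.19 ± 1.57 to 2.40 ± 1.33 CPM in wild type while med19b fell. taf5, the TFIID form, fell in the mutant from 8.48 ± 4.67 to 2.55 ± 0.16 CPM (-1.72 ± 0.64, adjusted p = 0.0295), and taf5l, the SAGA form, stood at 4.80 ± 0.93 and 3.90 ± 0.57 (-0.30 ± 0.50, adjusted p = 0.63).

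The kinase of Mediator has 3 further genes, cdk8, cdk19 and ccnc, outside the med symbols. ccnc, which encodes cyclin C, was lower in the mutant at 256c, with 59, 46 and 23 counts in wild type against 8, 5 and 18 (log2 fold change -2.76 ± 0.68, adjusted p = 0.0119). At 1024c it had 84, 73 and 12 counts against 4, 1 and 15 (-3.03 ± 0.70, adjusted p = 0.0133), and no library of one genotype reached into the other in CPM at either stage. At Oblong it had 75, 79 and 59 against 32, 32 and 19, and at Sphere 64, 112 and 81 against 37, 54 and 44 (averaged -2.10 ± 0.33, adjusted p = 3.77e-05). cdk8 was lower in the average (-0.95 ± 0.33, adjusted p = 0.0363), so 2 of the 3 were called there, against 25.4% of all genes.

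In other genes of the initiation machinery single members were called. Of 20 general factor genes, gtf2h3, a TFIIH subunit with no wild type count and 5, 3 and 9 counts in the mutant, was higher and gtf2a2, a TFIIA subunit, was lower at 256c, which is 2 called against 9.47% of all genes, and at no later stage was one called in edgeR, where 3, 2 and 0 had an unadjusted p under 0.05. Of 12 genes of RNA polymerase II subunits, polr2j was higher at 256c (log2 fold change 4.07 ± 1.04, adjusted p = 0.0141) and polr2d and polr2gl at 1024c. At 1024c 3.39% of all genes were called, 1.83% being higher. polr2d had no count in wild type 1024c and 19, 10 and 10 in the mutant (adjusted p = 0.00535). In wild type it had at most 3 counts in a library outside Sphere, and 1, 22 and 10 at Sphere. It thus had enough counts to be tested only with the mutant libraries, where it is high, and its adjusted p-values for genotype are no independent support. In the average, where 25.4% of all genes were called, polr2j (2.31 ± 0.46), polr2d (3.81 ± 0.57) and polr2gl (1.69 ± 0.33) were higher and none of the 12 was lower. The general factors gtf2a1 (1.22 ± 0.29) and gtf2h3 were higher, and gtf2a2 (-1.18 ± 0.34) and gtf2h1 (-1.12 ± 0.33) lower. gtf2h3 had enough counts to be tested only with the mutant libraries, so its calls for genotype are no independent support. Of 11 SAGA genes, tada2b was higher (1.47 ± 0.36) and sgf29 lower (-1.19 ± 0.41), with no call at a single stage in edgeR and 4, 1, 0 and 0 genes at an unadjusted p under 0.05 from 256c to Sphere. sgf29 had enough counts to be tested only with the wild type libraries, so its call for genotype is no independent support. Neither of the 2 tested genes of the TBP family was called for genotype in edgeR, and 1 had an unadjusted p under 0.05 in the average.

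From 256c to Sphere in wild type, 5 general factor genes rose and 1 fell, 4 polymerase genes rose, 3 SAGA genes rose and 2 fell, and 1 TBP family gene rose and 1 kinase gene fell. Of all genes 30.7% rose and 16.2% fell. In the mutant these counts were 6 and 4 for the general factors, 3 and 2 for the polymerase, and 2 and 3 for SAGA, and 1 TBP family gene rose, where 26.8% of all genes rose and 22.4% fell.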

How the data were processed

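The authors deposited raw counts per gene, whole numbers with no normalization, per the file headers. The headers call the columns filtered, without saying of what. The kit marks strand and the table's name speaks of proper orientation, but no counting setting is stated, so values of overlapping and antisense genes are uncertain. The submitters' processing notes name the build GRCz11 and, with no version, featureCounts, HISAT, Trimmomatic, Picard, SAMtools and DESeq2. The authors' deposited table of comparisons holds log2 fold changes and p-values, and the exonic lengths used here are those the authors deposited. All 47 identifiers matched the table of gene names.

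All 24 IAA libraries entered 1 edgeR model (version 4.0.16, limma 3.58.1, R 4.3.3) with a mean for each of the 8 groups, scaled by TMM and filtered by filterByExpr, and the quasi-likelihood test was used. p-values were adjusted by Benjamini-Hochberg over 14732 genes, and calls were made at 0.05. The SE was derived from the quasi-F statistic. DESeq2 (version 1.42.0) was run as an alternative, beside other scalings, no filter on low counts, a replicate block, only the groups compared, and each replicate left out. The procedure was also run on simulated data. The outcome is not given here and is no support for single-stage calls on few counts. A fold against a group at 0 used a floor of 3 counts over that group, and intervals are 95% binomial. Folds of summed counts were scaled by TMM library sizes, and their intervals leave out the error of that scaling.

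Replicate numbers were taken to pair samples where every same-numbered pair of libraries deviated together with a correlation over 0.1. This held between genotypes at Oblong (0.20, 0.19 and 0.11) and at no other stage or net course. Whether the numbers mark a shared clutch or day is not labelled. Pairs of replicates differed beyond sampling noise (chi-square per degree of freedom of 11.0 to 272 over 24 pairs). That spread can be technical and does not show that the replicates are independent. Each library was counted as a replicate because it is labelled as one. The members and lists were chosen with earlier results of these data known. Values per library are given for members called for genotype at a stage or in the average, for the 4 largest called rises and falls in the wild type net course and for pairs of related genes. The symbols gtf2a1l and gtf2h4 each occur for more than 1 row and the rows were kept apart. The 4 wild type libraries without IAA entered no comparison.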

Additional observations from a re-analysis of the deposited data

Results flagged for a closer look

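The 4 wild type libraries without IAA, 1 per stage, lie outside the comparisons and also held counts of these genes. Over all 4 they held 1324 counts of med genes and 1160 of taf genes. From 256c to Sphere the med genes had 181, 269, 139 and 735 counts, or 0.174, 0.183, 0.106 and 0.115% of the nuclear counts. The taf genes had 154, 222, 180 and 604, or 0.148, 0.151, 0.137 and 0.0947%. With 1 library per stage there is no replicate check.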

How the results depend on the processing

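The number of genes called depended on the processing in several comparisons. For med genes at 256c, against 5 as reported, total-count scaling gave 3, the replicate block 3 and a fit of only the groups compared 2. For taf genes, against 2, DESeq2's size factors in edgeR gave 1, total-count scaling 1, leaving out mitochondrial genes 1 and only the groups compared 0. Over all genes at 256c, total-count scaling called 1901 higher and 185 lower, the replicate block 905 and 396, and only the groups compared 505 and 265 of 5910 tested. At 1024c DESeq2 called 1 med and 2 taf genes, and the replicate block and only the groups compared each gave 0 taf genes. At Oblong DESeq2 and only the groups compared each gave 1 med gene. For the net course in wild type, total-count scaling gave 20 med and 12 taf genes and only the groups compared 3 taf genes. Over all genes the first called 9556 higher and 15 lower of 14732, and the second 3071 and 917 of 9337 tested. In the mutant, total-count scaling gave 20 med genes and no filter on low counts 6 taf genes. Over all genes the first called 8735 higher and 90 lower of 14732, and the second 3803 and 3250 of 29481. For the difference in net course DESeq2 gave 2 med genes and 1 taf gene. With 1 replicate left out, counts ran from 0 to 3 (med) and 0 to 1 (taf) at 256c, 0 to 0 and 0 to 1 at 1024c, 0 to 0 and 0 to 0 at Oblong, 0 to 0 and 0 to 1 at Sphere, 5 to 8 and 2 to 5 in the average, 5 to 13 and 3 to 8 in the wild type course, 9 to 10 and 5 to 11 in the mutant course, and 0 to 0 for both in the difference. The replicate block changed no other count by over 1.5 times. At Oblong, where the numbers met the rule for pairing, no member was called with or without the block, so there was no call to lose. The cause of these changes was not tested.

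Total-count scaling, which counts the mitochondrial share, turned falls to rises. In wild type these became 0.325 for med16, 0.312 for med19b, 0.999 for med24, 0.253 for med28 and 0.454 for taf6l, and in the mutant 0.282 for med16, 0.748 for med20, 0.355 for taf1b and 0.665 for taf5 (log2). The median of all genes moved from 0.74 to 3.49 in wild type and from 0.57 to 2.85 in the mutant, and from 0.24 to 0.96 for genotype at 256c. With it 91.1% of all calls at 256c were upward against 69.7%, in the average 78.4% against 62.9%, and in the courses 99.8% against 65.4% and 98.98% against 54.4%. With DESeq2's size factors the courses gave 78.3% and 69.2%. In the average med11, med14, med24, med28, taf3 and taf7 were called in all 30 other settings, med19a in 29 of 30, taf8 in 25 of 29, med19b in 15 of 30 and taf1b in 13 of 30. Few counts per gene at 256c limit what these libraries can show.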
